A study of Mus musculus with 2 samples.

Results

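The genes described here are 10 that encode simple keratins (Krt7, Krt8, Krt18 and Krt19), annexins (Anxa1, Anxa2, Anxa3 and Anxa5) and the small S100 proteins S100a6 and S100a10, followed through the cell types of the newborn mouse kidney. They were chosen by symbol and make up 10 of the 55488 gene rows counted in each of 2 single-cell RNA-seq libraries. Both libraries come from neonatal (P0) kidneys that carry the Six2Cre transgene, whose recombinase is active in nephron progenitors and so reaches the nephron epithelium they form. The library labelled Flcn WT is Flcn flox/+ and therefore heterozygous for the floxed allele, and the library labelled Flcn KO is Flcn flox/flox. No source used here gives the strain, the sex or the number of animals behind each library, and the tissue label says embryonic kidney although the design text says neonatal. With 1 library per genotype no difference has a replicate check and no test was made. The comparison of the genotypes and the comparison of the libraries cannot be told apart. Every interval given is a 95% interval that covers counting error only.

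Simple keratins form the intermediate filaments of single-layered epithelia. A type II keratin (Krt7 or Krt8) pairs with a type I keratin (Krt18 or Krt19), and the filaments anchor in desmosomes and absorb mechanical load. Annexins are proteins that bind acidic phospholipids in a calcium-dependent way. Annexin A2 forms a tetramer with S100A10 at the plasma membrane, annexin A1 is known for its anti-inflammatory action, annexin A5 for its affinity for phosphatidylserine, and S100A6 (calcyclin) is a calcium sensor of proliferating and stromal cells. In the kidney, simple keratins are best known from the collecting duct and from damaged tubules, in which their transcripts are widely used as injury markers. Flcn encodes folliculin, a lysosomal regulator that keeps TFEB and TFE3, factors that turn on lysosomal genes, out of the nucleus.

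The libraries held 147390790 UMIs in 5572 barcodes (WT) and 149679281 UMIs in 5991 barcodes (KO). After filters on depth, genes, mitochondrial share and doublet score, the WT library kept 4000 cells with a median of 20960 UMIs and the KO library 4798 with a median of 18458, and the libraries shared 1 barcode among them. Cells were clustered without the 10 genes and the clusters were named from marker lists. That gave 11 cell classes with at least 50 cells in each library, among them 509 WT and 431 KO proximal tubule cells, 152 and 203 loop of Henle cells, 101 and 63 distal tubule cells, 192 and 118 podocytes, and 184 and 83 cells of the ureteric bud and collecting duct. Intercalated cells (42 and 14) were too few to compare, and 467 WT (11.7%) and 636 KO (13.3%) cells stayed without a name. Flcn itself had 1546 WT and 1416 KO UMIs, which put the KO library at 0.902 of the WT level (0.839 to 0.970) over all cells, 0.610 (0.527 to 0.705) in proximal tubule and 1.29 (0.939 to 1.79) in loop of Henle. Since UMIs were counted near transcript 3′ ends and no label says which exons are floxed, these values do not check the deletion.

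Levels are given as CPM, the UMIs of a gene per 1e6 nuclear-encoded UMIs of its class in 1 library. On GRCm38 the keratin genes Krt7 (ENSMUSG00000023039, chromosome 15, 101411043 to 101430313, plus strand), Krt8 (ENSMUSG00000049382, chromosome 15, 101996698 to 102004482, minus strand) and Krt18 (ENSMUSG00000023043, chromosome 15, 102028180 to 102032027, plus strand) lie on 1 chromosome. Krt19 (ENSMUSG00000020911) lies on chromosome 11, 100140810 to 100148665, minus strand. Krt8, Krt18 and Krt19 all had their highest class level in the ureteric bud and collecting duct, in both libraries. Krt8 was at 481 CPM there in the WT and 557 CPM in the KO library, Krt18 at 774 and 900 CPM, and Krt19 at 150 and 178 CPM. In endothelium, which is not known for keratin filaments, the same genes stood at 1.95 and 2.21 CPM (Krt8), 1.86 and 2.09 CPM (Krt18) and 0.557 and 0.930 CPM (Krt19). These endothelial values lie at or near the low end of each gene's range.

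The keratins differed in how far they extended into the nephron. Krt8 reached 362 CPM in WT and 535 CPM in KO proximal tubule cells, second in both libraries, and in the KO library its interval overlapped that of the ureteric class. Krt18 was second in distal tubule, at 292 CPM (WT) and 393 CPM (KO). Krt7 was highest in loop of Henle cells in the WT library, at 162 CPM, followed by the ureteric class at 142 and distal tubule at 136 CPM, whose intervals overlapped. In the KO library the order differed, with the ureteric class at 221 CPM, distal tubule at 108 CPM and loop of Henle at 64.7 CPM. Krt7 was also a podocyte transcript, at 103 CPM (WT) and 60.5 CPM (KO), while Krt8 stood at only 3.56 and 2.46 CPM in podocytes, and Krt19 had 2 UMIs in each library there. In nephron progenitors none of the 4 keratins exceeded 11.3 CPM.

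The annexins and S100 genes mostly had their highest levels outside the tubule. Anxa2 (ENSMUSG00000032231, chromosome 9, 69453620 to 69491795, plus strand) was highest in endothelium, at 385 CPM (WT) and 305 CPM (KO), and lowest in nephron progenitors at 15.2 and 15.3 CPM. S100a10 (ENSMUSG00000041959, chromosome 3, 93555080 to 93564643, plus strand), its partner, was also highest in endothelium, at 1332 and 1276 CPM. Anxa5 (ENSMUSG00000027712, chromosome 3, 36448923 to 36475894, minus strand) had the flattest profile of the 10. It ran from 363 CPM in mural cells to 54.0 CPM in nephron progenitors in the WT library, a 6.72-fold span, and over a 4.88-fold span in the KO library. Anxa1 (ENSMUSG00000024659, chromosome 19, 20373428 to 20390944, minus strand) was highest in mural cells in the WT library, at 146 CPM, and in immune cells in the KO library, at 160 CPM. S100a6 (ENSMUSG00000001025, chromosome 3, 90612882 to 90624181, plus strand) was highest in immune cells, at 488 and 516 CPM, then in the ureteric class at 423 and 369 CPM and in stroma at 309 and 337 CPM. Anxa3 (ENSMUSG00000029484, chromosome 5, 96793339 to 96845966, plus strand) led in podocytes in the WT library, at 286 CPM. In the KO library proximal tubule (260 CPM) and podocytes (255 CPM) stood side by side with overlapping intervals.

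**Figure D1:**
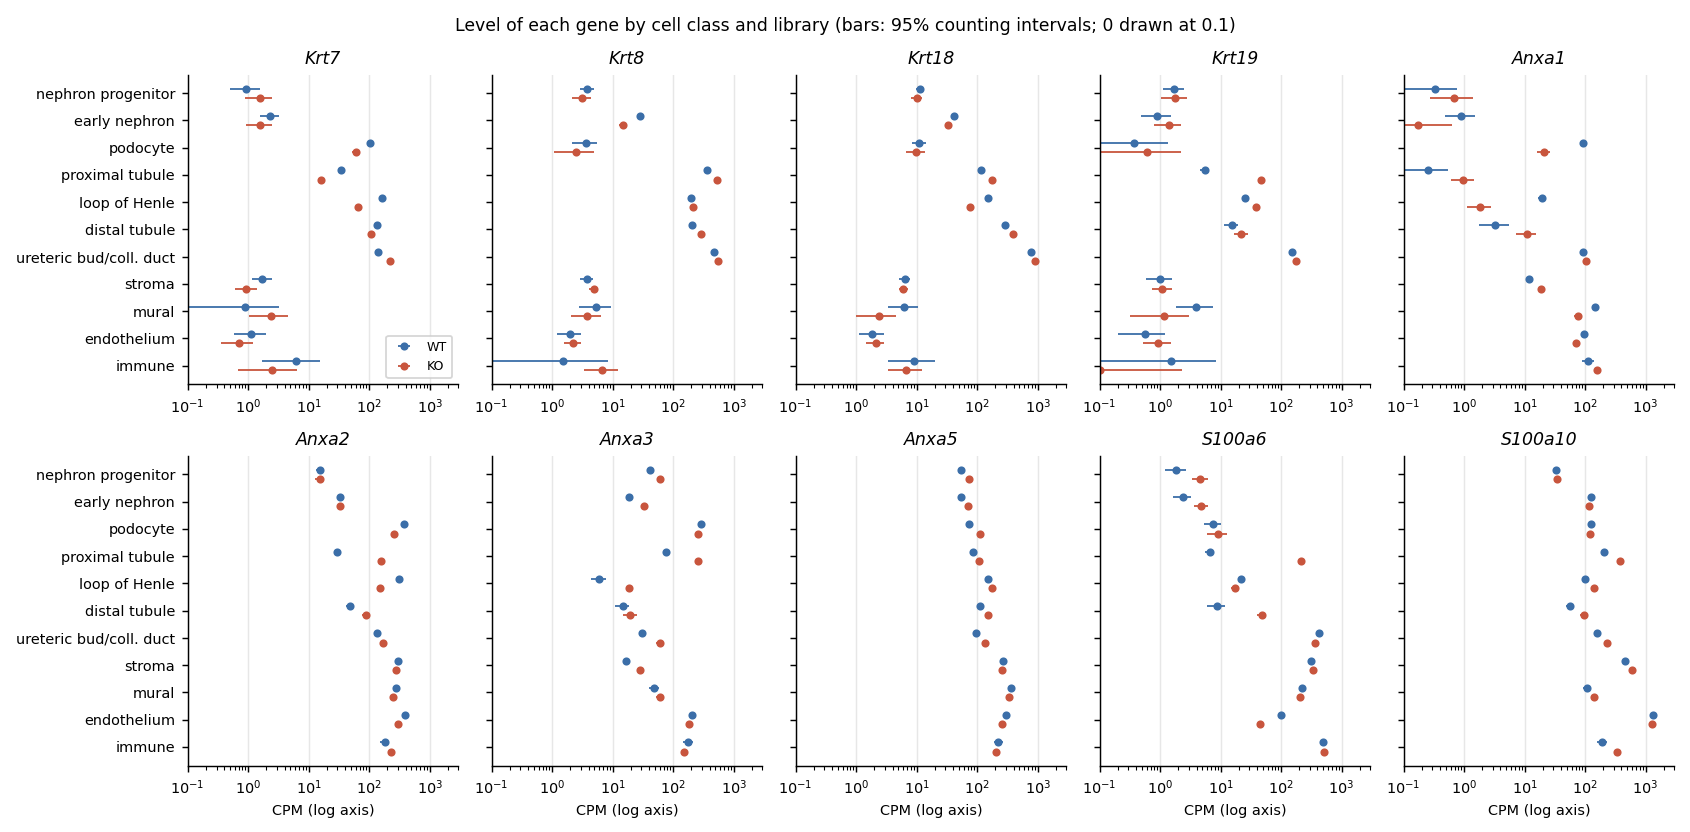
Level of each gene in CPM (log axis) in 11 cell classes, blue for the WT and red for the KO library, with 95% counting intervals. S100a6 in proximal tubule stands at 6.63 CPM in the WT and 212 CPM in the KO library, the widest gap of the plot among genes with at least 50 UMIs in the class.

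The comparison of the libraries asked how the level of each gene in a class differed between the KO and the WT library. A gene was counted as higher or lower at a ratio of at least 2-fold among genes with at least 50 UMIs over both libraries in the class. In proximal tubule 9 of the 10 genes had enough UMIs, and 4 were higher and 1 lower, where 4.01% of all 14673 genes were higher and 3.37% lower. In loop of Henle all 10 had enough UMIs, and 1 was higher (3.96% of all genes) and 3 lower (6.46%). In distal tubule 1 of 9 was higher (3.9% of all genes) and none lower (3.09%). In podocytes none of 8 was higher (2.8%) and 1 was lower (1.97%). In nephron progenitors 1 of 7 was higher (1.1%) and in early nephron cells 1 of 8 (1.26%), both S100a6 and both with none lower (1.14% and 1.52%). In the ureteric class none of 10 passed 2-fold (0.794% of all genes higher and 0.851% lower). Endothelium had 1 of 8 lower (0.768%) and none higher (0.835%). Stroma (9 genes, 1.33% and 0.528% of all genes), mural cells (6 genes, 1.23% and 1.01%) and immune cells (6 genes, 1.81% and 1.89%) had none of either kind. The median log2 ratio of the measured members was 0.88 in proximal tubule, where the median of all genes was -0.02. Over all cells of a library none of the 10 passed 2-fold, where 3.05% of all genes were higher and 2.73% lower. The class median was 0.49 in distal tubule (all genes 0.03), 0.30 in the ureteric class (0.03) and -0.13 in loop of Henle (-0.03).

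**Figure D2:**
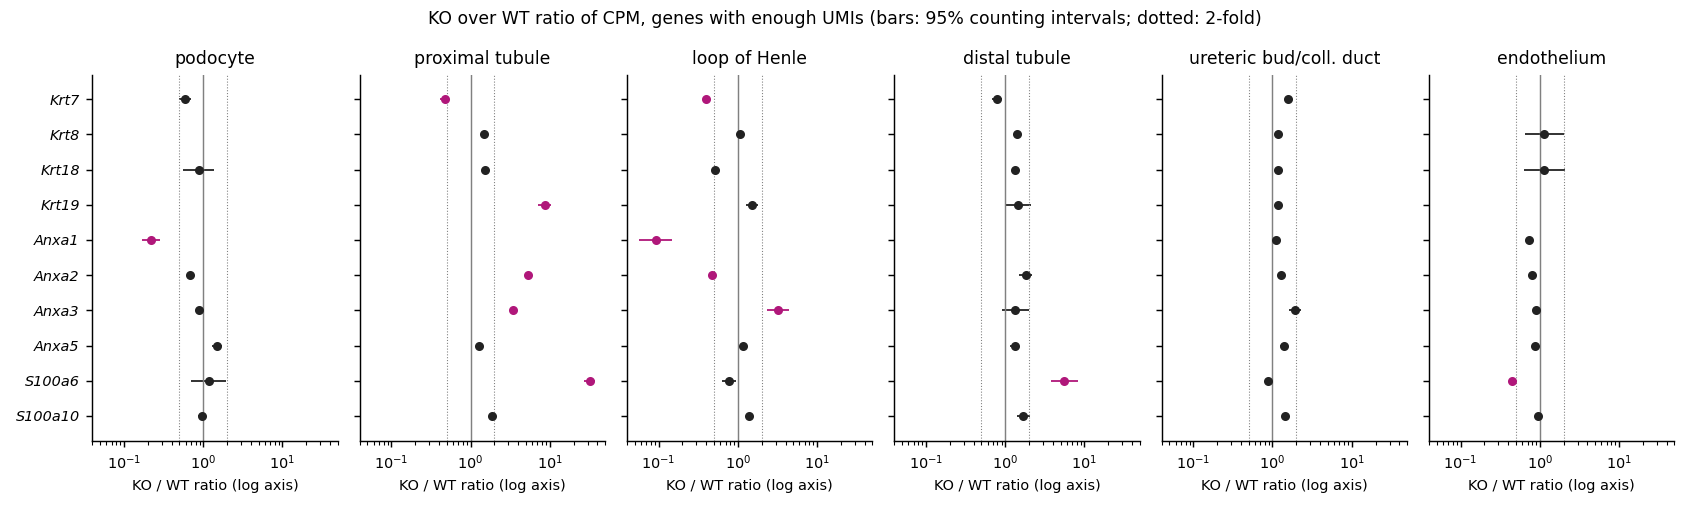
Ratio of KO over WT CPM (log axis) of each gene with at least 50 UMIs in 6 classes, with 95% counting intervals; dotted lines mark 2-fold and purple points lie beyond it. Proximal tubule has 4 points to the right of the upper line and Krt7 to the left of the lower one, loop of Henle has Krt7, Anxa1 and Anxa2 to the left and Anxa3 to the right, and the ureteric class has none outside the lines.

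Proximal tubule cells, which reabsorb most of the glomerular filtrate, held the largest difference. S100a6 had 158 UMIs in the WT and 4592 UMIs in the KO library, or 6.63 against 212 CPM, a ratio of 31.9 (27.2 to 37.6). The interval of the KO level overlapped that of mural cells of the same library, and the interval of the WT level that of podocytes. Krt19 had 131 and 1024 UMIs, or 5.49 against 47.2 CPM, a ratio of 8.59 (7.15 to 10.4). Among the other keratins of the proximal tubule, Krt8 stood at 362 and 535 CPM (ratio 1.48, 1.44 to 1.52) and Krt18 at 116 and 178 CPM (1.54, 1.47 to 1.62). Krt7 went the other way, from 33.7 CPM in the WT to 16.03 CPM in the KO library (0.475, 0.418 to 0.540). So of the keratins Krt19 and Krt7 lay beyond 2-fold, on opposite sides, and Krt8 and Krt18 within it.

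Of the annexins, Anxa2 had 711 UMIs in the WT and 3471 UMIs in the KO proximal tubule, or 29.8 against 160 CPM, a ratio of 5.36 (4.94 to 5.82). Anxa3 had 1788 and 5636 UMIs, or 74.99 against 260 CPM (3.46, 3.28 to 3.65). S100a10, which binds annexin A2, was at 203 and 375 CPM, a ratio of 1.85 (1.78 to 1.91) just inside 2-fold. Anxa5 was at 85.2 and 108 CPM (1.27, 1.19 to 1.35). Anxa1 had 6 WT and 21 KO UMIs, too few to count. Krt7, at 0.475, lay just beyond the limit on the lower side.

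The proximal tubule class joined 3 clusters that the libraries filled unequally. Cluster 18, with Lrp2 and Ttc36 among its leading genes, held 282 of the 509 WT and 77 of the 431 KO cells. Cluster 20, led by Lrp2, Erbb4 and Grid1, held 155 and 166 cells, and cluster 25, with Gpx3 and Gatm among its own, held 72 and 188. S100a6 stood apart by library in cluster 25. It was at 4.79 CPM in the WT and 444 CPM in the KO cells of that cluster, against 7.44 and 8.08 CPM in cluster 18 and 6.06 and 7.13 CPM in cluster 20. Krt19 likewise stood at 2.55 and 91.6 CPM in cluster 25, and at 5.32 and 5.83 CPM in cluster 20, with 6.33 and 12.8 CPM in cluster 18. The KO level of Anxa2 and of Anxa3 lay above the WT level in all 3 clusters, and that of Anxa5 above it in cluster 20 (40.1 and 63.9 CPM) and below it in cluster 18 (98.7 and 77.6 CPM). Anxa2 was at 34.2 and 284 CPM in cluster 25, 30.8 and 55.8 CPM in cluster 18, and 26.6 and 48.5 CPM in cluster 20. Anxa3 was at 31.3 and 417 CPM in cluster 25, 111 and 221 CPM in cluster 18, and 35.6 and 71.6 CPM in cluster 20. Krt7 was lower in the KO cells of each cluster, at 65.4 and 23.9 CPM, 37.5 and 10.7 CPM, and 15.6 and 8.30 CPM in clusters 25, 18 and 20.

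**Figure D3:**
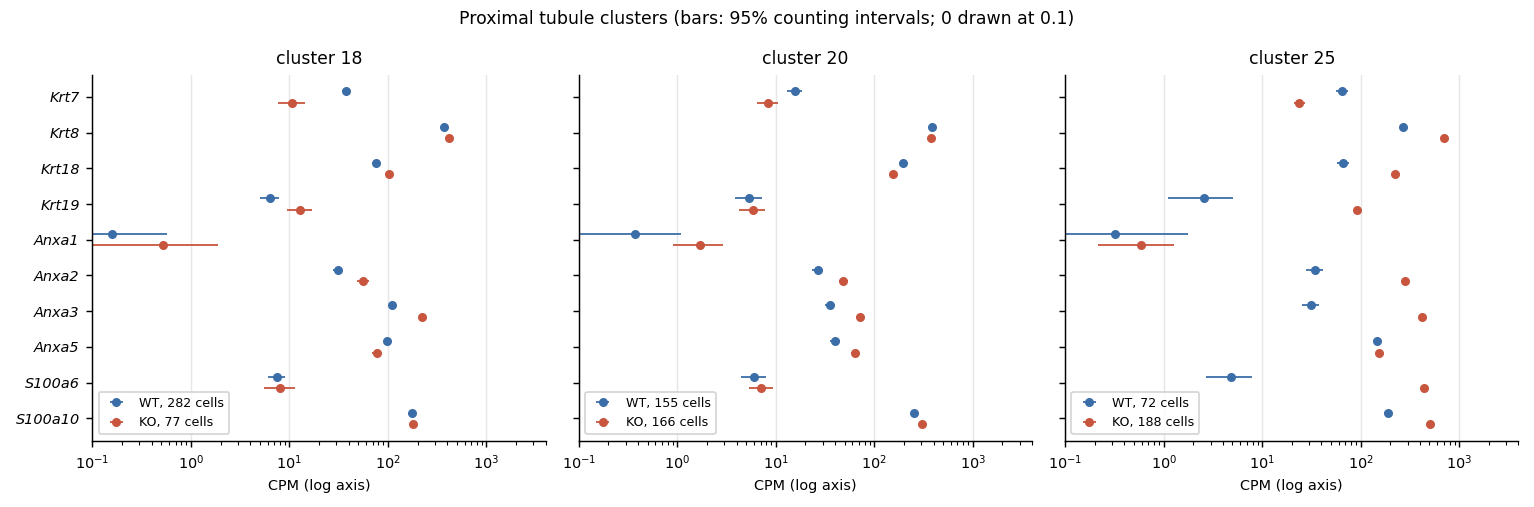
Level of each gene in CPM (log axis) in the 3 proximal tubule clusters, WT in blue and KO in red, with 95% counting intervals and the number of cells in each key. S100a6 and Krt19 separate by library in cluster 25 (4.79 against 444 CPM and 2.55 against 91.6 CPM), while Anxa2 and Anxa3 are further right in the KO cells of all 3 clusters.

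At a finer resolution of 2 most of the KO cells behind these values fell into a cluster of 160 KO and 3 WT cells, led by Gpx3 and Kcnip4, in which S100a6 stood at 505 CPM in the KO cells. Without that cluster the proximal ratio of S100a6 was 1.15, that of Krt19 1.43, that of Anxa2 1.95 and that of Anxa3 1.58, and no member was 2-fold higher. With the clusters that hold at least 20 cells of each library weighted equally, the ratio was 0.908 for S100a6, 1.15 for Krt19, 1.81 for Anxa2 and 1.52 for Anxa3. In a cluster held almost wholly by 1 library, a state of the cells and a property of that library cannot be told apart.

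The S100a6 UMIs of the proximal tubule were unevenly spread over cells. In the KO library the tenth of cells with the most (43 cells) held 90.9% of the 4592 UMIs, 56 cells (12.99%) had at least 10 and the highest had 415. In the WT library 3 cells had at least 10 UMIs, and 1 of them held 62 of the 158. Anxa3 was broader, with at least 10 UMIs in 164 KO cells (38.1%) and in 48 WT cells (9.43%), and Anxa2 had that many in 102 KO (23.7%) and 10 WT cells (1.96%). After thinning every cell to 3000 UMIs, S100a6 was detected in 9 of 505 cells of the WT library (1.78%, Clopper-Pearson 0.818 to 3.36%) and in 55 of 429 of the KO library (12.8%, 9.81 to 16.4%). Unthinned shares were 9.63% and 32.9%. In nephron progenitors, where S100a6 is near 0, the thinned shares were 0.408% and 1.51% at median depths of 25128 and 22168.5 UMIs, against 41792 and 46214 UMIs in proximal tubule. Krt19 was detected in 1.78% of WT and 9.32% of KO cells after thinning, Anxa2 in 7.52% and 24.0%, and Anxa3 in 16.4% and 35.4%. Krt7 was detected in 8.71% and 3.73%.

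These transcripts were often detected in the same cells. Of the 55 thinned KO proximal tubule cells with an S100a6 UMI, 72.7% also had one of Anxa3, 52.7% of Anxa2, 27.3% of Krt19 and 83.6% of Krt8. Of the 374 without S100a6, 29.9% had Anxa3, 19.8% Anxa2, 6.68% Krt19 and 60.4% Krt8. Before thinning the cells with S100a6 had a median of 55499 UMIs and those without 44984.5, and the part of this depth in the shares was not tested. At least 5 of the 10 genes were found in 59 of 429 KO cells (13.8%) and in 7 of 505 WT cells (1.39%). Havcr1 encodes KIM-1, a membrane protein of injured proximal tubule, and 73 thinned KO cells and 5 thinned WT cells had a UMI of it. Among these 73 KO cells 45.2% had S100a6, 54.8% Anxa2, 67.1% Anxa3 and 27.4% Krt19, and among the 356 KO cells without Havcr1 the shares were 6.18%, 17.7%, 28.9% and 5.62%. Krt7 differed little between them, at 5.48% and 3.37%. The cells of a library share their source, so these shares describe the 2 libraries and not animals.

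**Figure D4:**
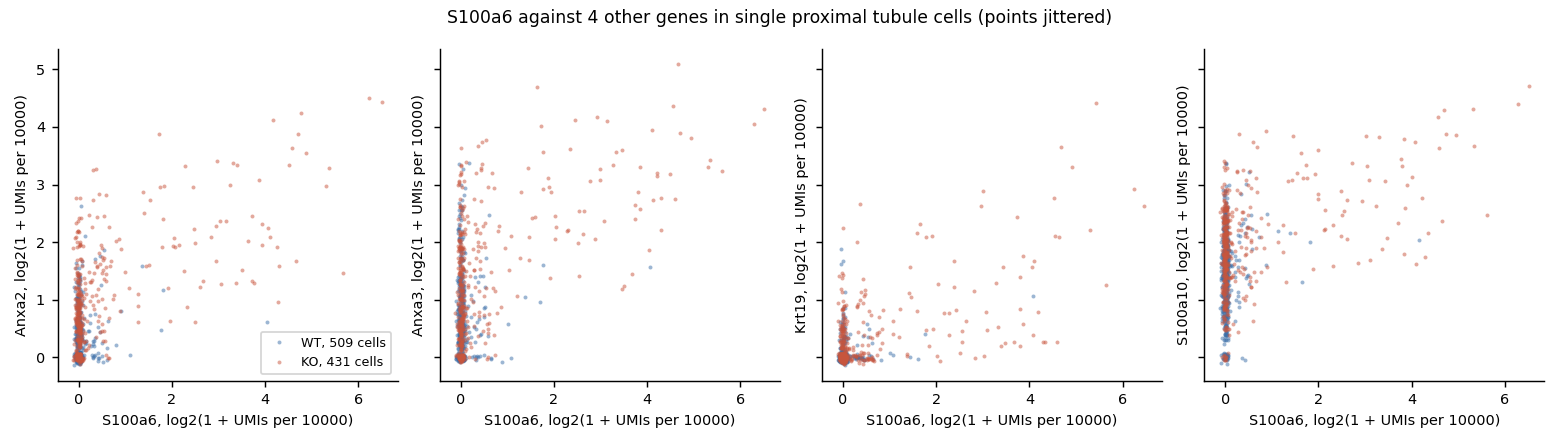
Each point is 1 proximal tubule cell, with S100a6 on the horizontal and Anxa2, Anxa3, Krt19 or S100a10 on the vertical axis, both as log2(1 + UMIs per 10000) and jittered, 509 WT cells in blue and 431 KO cells in red. Cells to the right of the crowd at 0 are mostly KO cells, and most of these also lie above 0 for Anxa2 and Anxa3.

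Related genes in proximal tubule were read from gene lists in the same way, where 4.01% of all genes were higher and 3.37% lower. Of 33 other keratin genes only Krt20 and Krt10 had enough UMIs. Krt20, a type I keratin of umbrella cells and gut epithelium, had 59 WT and 882 KO UMIs (16.4-fold, 12.6 to 21.8), and Krt10 was at 15.4 and 11.2 CPM. Of 8 other annexins 5 had enough UMIs and 1, Anxa4, was higher (2.07-fold, 36.9 against 76.4 CPM), with Anxa13 at 40.3 and 39.5 CPM. Of 14 other S100 genes 5 had enough and S100a1 was higher (2.98-fold), S100a11 just under 2-fold (1.96) and the vitamin D target S100g at 0.686. Of 14 measured filament and desmosome genes 4 were higher and none lower, led by the plakin family members Eppk1 (14.6-fold, 9 against 120 UMIs) and Ppl (13.5-fold, 31 against 380 UMIs) and by the intermediate filament gene Nes (3.38-fold). Vim, the mesenchymal filament, was at 18.1 and 16.95 CPM, and the desmosome linkers Jup and Dsp at ratios of 1.03 and 1.54.

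Of 8 measured partners of annexin A2 and S100A10 in proximal tubule, 3 were higher (4.01% of all genes) and none lower (3.37%). These were Plaur, the urokinase receptor, at 4.99 and 29.9 CPM (5.98-fold), Ahnak, a giant scaffold protein that binds the annexin A2 and S100A10 complex, at 39.8 and 118 CPM (2.97-fold), and Dysf at 2.04-fold. Plau was at 122 and 114 CPM and Cav1 at 18.3 and 13.2 CPM. Of 14 measured tubule injury genes 9 were higher and none lower, with a median log2 ratio of 2.18. Plaur is on this list too and is counted in both. Sprr1a had 14 and 1120 UMIs, Nupr1 43 and 2137 UMIs and Cldn4 32 and 1033 UMIs, while Vcam1 (1.02), Clu (1.06) and Spp1 (1.16) hardly differed. Of 11 AP-1 and immediate-early genes 2 were higher, Fosl1 (4.73-fold) and Atf3 (2.27-fold), with Fosb, Jun and Egr1 between 0.912 and 1.01. Of a list of 15 genes of the folliculin pathway and the lysosome, with Flcn itself among them, 4 were higher. Gpnmb had no UMI in WT and 239 in KO proximal tubule cells. Hexa was 6.58-fold and Rragd 5.08-fold higher. Wipi1 was at a ratio of 0.822 and Flcn at 0.610. The lists were drawn up with earlier results of these data known and lend the members no support.

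Markers of other cells were measured beside these values. In proximal tubule the summed level of 8 neutrophil markers was 1.93 CPM in the WT and 3.69 CPM in the KO library, that of 8 urothelial markers 3.52 and 4.84 CPM with Upk2 and Gsdmc at 0 in both and Psca at 9 and 42 UMIs, and that of 8 collecting duct genes 13.8 and 8.02 CPM. The 8 mesothelial markers summed to 185 and 125 CPM, nearly all of it Wt1 and Gpm6a, with Upk3b at 1 and 2 UMIs. Leaving out every cell with a UMI of S100a8 or S100a9 left the S100a6 ratio at 31.9 and put Krt7 at 0.503, just short of 2-fold.

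Loop of Henle cells, with Slc12a1 and Umod among their leading genes, showed another mixture. Krt7 had 1416 WT and 740 KO UMIs, or 162 against 64.7 CPM (0.400, 0.365 to 0.437). Its type I partner Krt18 was at 150 and 76.9 CPM, a ratio of 0.514 (0.471 to 0.560) just short of 2-fold. Krt8 was at 196 and 210 CPM (1.07, 1.01 to 1.14) and Krt19 at 25.6 and 38.7 CPM (1.51, 1.29 to 1.79). Anxa2 had 2771 and 1734 UMIs, or 317 against 152 CPM (0.479, 0.451 to 0.509), and its partner S100a10 lay in the other direction at 99.5 and 138 CPM (1.39, 1.28 to 1.51). Anxa3 had 52 and 216 UMIs, or 5.94 against 18.9 CPM (3.18, 2.34 to 4.39), and Anxa5 was at 153 and 176 CPM. So Anxa2 was higher in KO proximal tubule and lower in KO loop of Henle cells, while Anxa3 was higher in both.

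Anxa1 in loop of Henle had 172 WT and 21 KO UMIs, or 19.6 against 1.84 CPM (0.093, 0.056 to 0.147), but 118 of the 172 came from 1 cell. Without the highest cell of each library the ratio was 0.203. S100a6 had 194 and 197 UMIs, or 22.2 against 17.2 CPM (0.777, 0.634 to 0.952), and 139 of the KO UMIs came from 1 cell. Without the highest cell of each library its ratio was 0.410, and without cells with a UMI of S100a8 or S100a9 it was 0.217. At resolution 0.5 it was 3.35, in the other direction, in a class of 245 WT and 298 KO cells against 152 and 203 in the main setting. A cluster without a class name but with leading genes of the loop of Henle (100 and 109 cells) had more S100a6 in its KO cells, as given below. Whether its cells joined the class at resolution 0.5 was not tested. Anxa2 stood at 0.504 without its highest cells, so its place beyond 2-fold rests on 1 cell in each library.

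At resolution 2 the WT loop of Henle cells lay in 1 cluster (146 WT and 31 KO cells, led by Slc12a1, Erbb4 and Esrrg) and most KO cells in another (no WT and 166 KO cells, led by Slc12a1, Umod and Ptger3). Within the shared cluster Krt7 was at 162 and 22.5 CPM, Krt18 at 150 and 84.0 CPM, and Anxa2 at 316 and 174 CPM. The 166 KO cells of the other cluster had 71.7, 75.4 and 148 CPM of these 3 genes. Anxa3 was at 5.96 and 7.33 CPM in the shared cluster and at 21.0 CPM in the KO cluster, and its ratio without that cluster was 1.34. With the libraries clustered apart it was 1.13, and Krt7 stood at 0.565.

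Several collecting duct genes also stood lower in the KO loop of Henle cells. The 8 genes of that list summed to 49.5 CPM in the WT and 14.9 CPM in the KO library, and of the 4 with enough UMIs 3 were lower, Aqp2 at 118 and 10 UMIs, Fxyd4 at 114 and 21 UMIs and Avpr2 at 53 and 12 UMIs. Aqp3 went the other way, at 3.43 and 9.53 CPM (2.78), and made up most of the KO sum. Their part in the values of Krt7, Krt18, Anxa1 and Anxa2 was not tested. The neutrophil list summed to 2.06 and 2.53 CPM and the urothelial list to 12.3 and 9.27 CPM. Within the urothelial list Psca was lower, at 49 and 8 UMIs (0.125). Upk1a went the other way at 29 and 64 UMIs (1.69), and Trp63 lay at 0.842. The part of these genes in the values of the class was not tested. The 8 ureteric tip genes summed to 152 and 118 CPM and did not move together. Wnt11 was at 252 and 7 UMIs, and Gfra1 went the other way at 178 and 379 UMIs (1.63, 1.36 to 1.96). Etv4 (0.652), Spry1 (0.774) and Etv5 (1.07) lay within 2-fold, and Ret had 5 and 3 UMIs. The counts of the lists stand beside 3.96% of all genes higher and 6.46% lower in loop of Henle. Of the related lists, the partners of annexin A2 had 2 of 5 lower and none higher, Ahnak at 0.326 (68.4 against 22.3 CPM) and Dysf at 0.351. In proximal tubule Ahnak lay on the other side, like Anxa2. Of 5 measured S100 genes S100g was lower (0.199, 314 against 62.4 CPM) and S100a1 just under 2-fold higher (1.99). None of 4 other annexins passed 2-fold, and of the other keratins only Krt10 was measured (0.896). Of 13 filament and desmosome genes Dsc2 was higher (2.04) and Evpl lower (0.355), which for a list of this length is near those shares. Of 9 injury genes 3 were higher (Tnfrsf12a 3.98, Cd44 2.96, Cldn4 2.31) and Clu was lower (0.294). Of 10 AP-1 genes Atf3 was higher (2.19) and Ier3 lower (0.398). Of the 15 genes of the folliculin pathway list 7 were higher, led by Gpnmb (14 against 650 UMIs).

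In podocytes, the filtering cells of the glomerulus, the member beyond 2-fold was Anxa1, with 497 WT and 67 KO UMIs, or 93.2 against 20.6 CPM (0.221, 0.168 to 0.285). The WT value came from few cells, since 19 of 192 held 89.1% of the UMIs. At resolution 2 podocytes split into cluster 22, with Magi2 and Ptpro among its leading genes (115 WT and 49 KO cells) and cluster 31, led by Ptpro and Pcp4 (77 and 68 cells). Anxa1 lay at 144 and 39.5 CPM in the first and at 1.09 CPM and 0 UMIs in the second. Krt7 was likewise a transcript of the first, at 157 and 109 CPM, with 5.47 and 7.22 CPM in the second, and its ratio over all podocytes was 0.587 (0.497 to 0.692). Anxa2 (481 and 351 CPM) and Anxa3 (390 and 323 CPM) were also higher in the first cluster than in the second (198 and 152 CPM, 103 and 182 CPM). The first cluster made up more of the WT than of the KO podocytes. The collecting duct list summed to 22.5 CPM in WT and 9.21 CPM in KO podocytes, with Aqp2 at 58 and 2 UMIs and Fxyd4 at 35 and 9 UMIs. The neutrophil list summed to 2.25 and 3.07 CPM and the urothelial list to 2.81 and 4.30 CPM. Their part in the values of Anxa1 and Krt7 was not tested. Averaged over cells rather than summed, the Anxa1 ratio was 0.471, and with both clusters weighted equally it was 0.275.

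In the ureteric bud and collecting duct, which does not descend from Six2-positive progenitors, all members but Anxa5 and S100a10 differed more between 2 clusters than between libraries. Cluster 4, led by Aqp2, Fxyd4 and Frmpd4, held 84 WT and 30 KO cells, and cluster 17, led by Calb1, Nrg3 and Rprm, held 99 and 53. Krt19 stood at 382 CPM in the WT and 454 CPM in the KO cells of the first, against 25.2 and 31.6 CPM in the second. Krt7 was at 316 and 563 CPM against 48.8 and 40.3 CPM, Krt8 at 860 and 1157 CPM against 277 and 239 CPM, and Krt18 at 1352 and 1873 CPM against 463 and 384 CPM. Anxa1 (175 and 163 CPM against 49.0 and 70.4 CPM), Anxa2 (248 and 327 CPM against 72.3 and 87.8 CPM) and S100a6 (695 and 557 CPM against 277 and 270 CPM) kept the same order. Anxa5 was at 93.5 and 160 CPM in the first and 97.0 and 120 CPM in the second. Over the whole class ratios ran from 0.872 (S100a6) to 1.92 (Anxa3, 31.0 against 59.7 CPM), and Krt7 stood at 1.56 (1.42 to 1.699), opposite to its direction in proximal tubule, loop of Henle and podocytes. The urothelial list summed to 90.4 CPM in the WT and 81.6 CPM in the KO cells of the class. Of its 5 genes with enough UMIs 2 were lower (0.851% of all genes) and none higher (0.794%). The lower ones were Upk1b at 140 and 2 UMIs and Psca at 70 and 3 UMIs. Upk2 had 26 and 0 UMIs. The other genes of the list with enough UMIs lay within 2-fold and on both sides. Trp63, at 213 and 162 UMIs, had a ratio of 1.68 (1.36 to 2.07). Upk3a, at 275 and 137 UMIs, stood at 1.098 (0.888 to 1.35), and Upk1a at 0.588 (0.283 to 1.13). Their part in the values of the class was not tested. After thinning, 29.4% of WT and 41.3% of KO cells of the class had at least 5 of the 10 genes. In the few intercalated cells, Krt7 was detected in 29 of 41 WT and 14 of 14 KO cells after thinning.

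In distal tubule S100a6 had 34 WT and 131 KO UMIs, or 8.61 against 47.6 CPM (5.53, 3.77 to 8.33), and Anxa2 was just under 2-fold at 48.1 and 87.3 CPM (1.81, 1.49 to 2.21). S100a10 was at 55.7 and 94.5 CPM (1.697). Krt8 (1.41) and Krt18 (1.34) were higher within 2-fold, and Krt7 lower (0.791). The neutrophil list summed to 3.04 CPM in the WT and 272 CPM in the KO cells of this class, and cells with a UMI of S100a8 or S100a9 were 3 of 101 in the WT and 8 of 63 in the KO library. Those 8 cells held 16 of the 131 S100a6 UMIs and 17 of the 30 Anxa1 UMIs, and without such cells the S100a6 ratio was 5.83. Of the collecting duct list, Aqp2 (1328 and 304 UMIs, 0.329) and Hsd11b2 (559 and 88 UMIs, 0.226) were lower in distal tubule, where 3.09% of all genes were lower. Aqp3 (0.540), Scnn1g (0.669), Scnn1b (0.718) and Fxyd4 (0.743) were lower within 2-fold. The part of these genes in the values of the class was not tested. Median depth was 16023 UMIs per cell in the WT and 38957 in the KO library. After thinning, S100a6 was detected in 0 of 70 WT cells and in 4 of 50 KO cells (2.22 to 19.2%). The 0 allows a share of up to 5.13% of cells with a UMI at that depth and sets no limit on cells with the transcript. Unthinned, 9 of 101 WT (8.91%) and 20 of 63 KO cells (31.7%) had a UMI.

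S100a6 had few UMIs in nephron progenitors, 28 and 48 (1.84 against 4.64 CPM, ratio 2.52, 1.55 to 4.17), and in early nephron cells, 34 and 56 (2.35 against 4.83 CPM, 2.05, 1.32 to 3.24). These are the lowest class levels of the gene in both libraries. The neutrophil list summed to 2.24 CPM in WT and 41.5 CPM in KO progenitors, with S100a8 at 8 and 139 UMIs and S100a9 at 8 and 228 UMIs. Cells with a UMI of either held none of the 28 WT and 8 of the 48 KO S100a6 UMIs, and without them the ratio was 2.24. In early nephron cells the list summed to 3.25 and 4.57 CPM. In progenitors the ratio was 1.65 with doublet calls kept and 1.86 as a mean over cells, and in early nephron cells it was between 1.34 and 3.497 over the alternatives. Krt8 was at 27.9 and 15.1 CPM in early nephron cells (0.541, 0.451 to 0.648), and Anxa3 at 18.8 and 32.8 CPM (1.75, 1.49 to 2.05).

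In stroma, mural cells, endothelium and immune cells the members with enough UMIs stayed within 2-fold, except S100a6 in endothelium. It had 1091 WT and 775 KO UMIs there, or 101 against 45.0 CPM (0.445, 0.405 to 0.489). Endothelial cells with a UMI of S100a8 or S100a9 (14 of 296 WT and 25 of 460 KO) held 197 of the 1091 WT and 50 of the 775 KO UMIs. Without them the S100a6 ratio was 0.4999, at the 2-fold limit. At resolution 2 the S100a6 difference lay mostly in a cluster led by Fabp4, Flt1 and Sox17 (250 and 82.7 CPM, 69 and 121 cells) and a second one (82.7 and 34.5 CPM, 161 and 239 cells). The remaining one was at 26.9 and 29.0 CPM. S100a10, the most abundant transcript of the 10 in these cells, was at a ratio of 0.958. In stroma S100a6 was at 309 and 337 CPM (1.09) and Anxa2 at 296 and 283 CPM (0.955). In mural cells Anxa1 was just short of 2-fold lower (146 and 75.2 CPM, 0.515, 0.436 to 0.608). In immune cells S100a10 was at 192 and 339 CPM (1.77, 1.45 to 2.17).

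Promoter sequence is given for 2 of the genes that were higher together in KO proximal tubule, S100a6 and Anxa2. RefSeq windows (GRCm38.p6, 250 bases before to 50 bases after a start site) were at hand for 7 of the 10 genes, and none was matched for Krt19, Anxa3 and S100a10. Each was searched on both strands for CACGTG, the core of the element that TFEB and TFE3 bind, for its longer form TCACGTG, for TGAGTCA, an AP-1 element, for TGACGTCA, a cAMP response element, and for TATAAA. The capitals mark the motif. Positions after the start are counted with the start base as the first.
S100a6, chr3:90612896-90612925, plus strand, TCACGTG starting 14 bases after the start: agagtttcgagTCACGTGccagaagggaaa
Anxa2, chr9:69453577-69453606, plus strand, TGAGTCA starting 95 bases before the start: tccaagttggaTGAGTCAcccagcagggtg
S100a6 was the only one of the 7 with CACGTG, which 7.15% of 32851 windows hold (TCACGTG 3.77%), and Anxa2 the only one with TGAGTCA, which 5.20% hold. TATAAA was in the windows of Krt8, Anxa1 and Anxa2 (13.6% of all windows), and TGACGTCA in none of the 7 (1.79%). A match is a run of letters, not a bound site.

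Over the 22 sums of 11 classes and 2 libraries, the keratins followed one another and the annexins and S100 genes less so. Pearson's r of log2(CPM + 5) was 0.95 for Krt8 and Krt18, 0.89 for Krt18 and Krt19, and 0.73 for Krt7 and Krt8. It was 0.63 for Anxa2 and S100a10, 0.74 for Anxa1 and Anxa2, and 0.01 for Krt8 and S100a6. Among 14023 genes the profile most like that of Krt8 was Rnf128 (0.98), and those most like the others were Casz1 for Krt7 (0.95), Map3k21 for Krt18 (0.97), Wbscr25 for Krt19 (0.95), Hivep2 for Anxa1 (0.89), Cast for Anxa2 (0.88), Ndel1 for Anxa3 (0.83), Vasp for Anxa5 (0.92), Ahnak for S100a6 (0.85) and Emp1 for S100a10 (0.85). The 22 points share 2 libraries and their depth, and the values describe likeness only.

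Cells without a class name held some of the highest levels. A cluster of low depth led by S100a9, S100a8 and Stfa1 (21 WT and 71 KO cells) had S100a6 at 2697 and 2056 CPM and Anxa1 at 1022 and 1553 CPM. One led by Npr3, Tmem132c and Cryab (75 and 72 cells) had S100a6 at 181 and 491 CPM and Anxa3 at 290 and 643 CPM. One led by Erbb4, Sim1 and Kcnc2 (100 and 109 cells), with leading genes of the loop of Henle, had S100a6 at 12.4 and 146.7 CPM, Krt8 at 108 and 246 CPM and Krt19 at 22.3 and 48.5 CPM.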

How the data were processed

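UMI counts per gene and cell were deposited as 1 integer matrix per library. Per the labels, libraries were made with Chromium Single Cell 3ʹ v2 reagents. The file headers name Cell Ranger 7.0.0 (WT) and 7.1.0 (KO). STAR 2.7.2a, bcl2fastq 2.20.0 and the build GRCm38 (mm10) come from the submitters' processing notes. No source used here names the annotation or says whether intronic reads were counted. A library's total counts are given with the results, and precision is limited to counting error. UMIs remove PCR copies, but cells are not replicates.

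Barcodes needed 1000 UMIs, 500 genes and a mitochondrial share no higher than 20%, and 4187 WT and 5040 KO barcodes passed. The expected share of highest Scrublet scores (0.8% per 1000 barcodes) was removed, 187 WT and 242 KO barcodes. Scrublet's own threshold called 52 and 48. Counts were scaled to 10000 per cell, 2000 variable genes without the 10 members gave 40 principal components, and Leiden clusters (20 neighbours, resolution 1, scanpy 1.11.5, igraph 0.11.9) were named from marker lists, needing a score of 0.35 and a lead of 0.05. These thresholds were set after seeing the data. No batch integration was used.

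UMIs were summed per class and library and divided by nuclear-encoded UMIs (CPM). Ratios carry exact conditional 95% intervals, levels Poisson and shares Clopper-Pearson intervals. The 2-fold rule used log2 ratios with 0.5 UMI added to each sum. Members, lists and rules were chosen with earlier results of these data known. Named genes are the 10 members, Flcn, the 3 highest and 3 lowest ratios of each list in proximal tubule and loop of Henle with at least 50 UMIs, and the 3 genes most like each member among those with 200 UMIs. Other genes are named as cluster leaders or markers of other cells, and a few list members within 2-fold were picked after their values were seen. The calculation was tested on simulated data. Alternatives included TMM scaling (edgeR 4.0.16) and median-of-ratios scaling (DESeq2 1.42.0). Krt8-ps, a pseudogene of Krt8, had 23 UMIs, and reads shared with it cannot be told apart.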

Additional observations from a re-analysis of the deposited data

Results flagged for a closer look

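Anxa2 and S100a6 lay at least 2-fold on opposite sides in different cell classes. Anxa2 had a ratio of KO over WT of 5.36 in proximal tubule and 0.479 in loop of Henle. S100a6 had a ratio of 31.9 in proximal tubule and 0.445 in endothelium. Anxa2 in loop of Henle stayed beyond 2-fold in 7 of 16 alternatives, with ratios up to 0.651. In proximal tubule, dropping the clusters held at 90% by 1 library put Anxa2 at 1.95 and S100a6 at 1.15, and weighting clusters equally put them at 1.81 and 0.908. S100a6 in endothelium stayed between 0.4072 and 0.4999 over 16 alternatives, with the upper value, at the 2-fold limit, without cells with a UMI of S100a8 or S100a9. With 1 library per genotype the difference between the classes was not tested, and no cause is offered.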

How the results depend on the processing

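Of the 90 ratios with enough UMIs, 14 lay beyond 2-fold. Per class and direction, the share of all genes beyond it ran from 0.528% (lower in stroma) to 6.46% (lower in loop of Henle). Of 16 alternatives, each ratio has a value in those that left the class and 50 UMIs of the gene. Over those, 13 of the 14 kept their direction and 4 stayed beyond 2-fold (S100a6 in endothelium over 16 and in distal tubule over 10, Anxa1 in podocytes and in loop of Henle over 15 each, with no value after thinning). Apart from the pair of settings that drop or reweight clusters, 8 of 14 stayed beyond it in those with a value. S100a6 in proximal tubule changed direction with clusters weighted equally (0.908). The equal weights and the removal of cells with S100a8 or S100a9 were chosen after seeing the data. Of the 76 ratios within 2-fold, 25 passed it in some alternative. The number of members beyond 2-fold moved as follows, given without the share of all genes in the same setting. In proximal tubule the higher count was 0 without clusters held at 90% by 1 library and 0 with clusters weighted equally, and the lower count was 0 with at most 10% mitochondrial UMIs, with each library clustered on its own, and without cells with S100a8 or S100a9. In loop of Henle the higher count was 0 with each library on its own, without 90% clusters, after thinning and with equal weights, and the lower count was 1 at resolution 0.5. In podocytes the higher count was 1 at resolution 0.5, as a mean over cells and after thinning, and 5 with each library on its own. That last setting named 127 WT and 187 KO cells podocytes, against 192 and 118 in the main setting, so it compared other cells. The lower count was 2 with doublets kept, with 500 UMIs and 200 genes, with each library on its own and without cells with S100a8 or S100a9, and 0 after thinning. In distal tubule the higher count was 0 with at most 10% mitochondrial UMIs (29 KO cells), with 500 UMIs and 200 genes (8 KO cells) and after thinning, and 2 with each library on its own and as a mean over cells, and the lower count was 1 with at most 10% mitochondrial UMIs and with each library on its own. In the ureteric class the higher count was 1 with doublets kept, with 2000 UMIs and 1000 genes, and with 500 UMIs and 200 genes. Thinning leaves fewer genes with 50 UMIs, and equal weights and the 90% rule remove cells by construction. S100a6 in distal tubule was beyond 2-fold in all 10 alternatives with a value (4.03 to 6.25). Where the distal higher count was 0, S100a6 had too few UMIs for a value. Elsewhere the cause was not tested. No distal class formed at resolution 0.5, with doublets kept or with 2000 UMIs and 1000 genes, and no KO ureteric class with each library clustered on its own. TMM and median-of-ratios scaling moved log2 ratios by at most 0.05. With a minimum of 20 UMIs, 4.81% of genes in proximal tubule were higher and 5.08% lower. No paired analysis was possible because each group has 1 library. S100a6 shares in proximal tubule after thinning to 1500 UMIs were 0.789% and 10.9%.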
